A study of Mus musculus with 92 samples.

Results

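Interferon-stimulated genes are the genes that cells switch on when interferon binds its receptor, and 33 of them were followed over the healing of freeze-injured mouse muscle. They were chosen by name from the 23811 genes of the expression table, and all 33 had a mean of at least 1 FPKM (fragments per kilobase of transcript, scaled to the mapped fragments of the library) in 1 or more groups, so all 33 were tested. Mice (C57BL/6J males aged 10 weeks) had the tibialis anterior muscle of the left leg frozen under anesthesia with a steel probe at dry ice temperature, and the uninjured tibialis anterior of the right leg of the same mice was the control. A control was therefore the other leg of an injured animal that had received the same anesthetics and analgesic, not the leg of an untouched mouse. The injured leg also had a skin incision closed with suture, and no such surgery is described for the control leg. Freezing and surgery thus cannot be told apart. RNA of muscle tissue was sequenced from injured muscles of 2 (3 h), 5 (10 h), 5 (24 h), 3 (48 h), 5 (72 h), 3 (7 days), 5 (14 days), 4 (21 days) and 5 (28 days) mice, and from control muscles of 3, 5, 5, 4, 5, 4, 5, 3 and 5 mice at the same times. The values of a library summed to 287291 to 828110 FPKM, and 5611 to 11572 genes were above 1 FPKM, while the number of reads behind a value is unknown. One injured library of 7 days with 334 genes above 0 and a control library of unknown time were left out, and the 2 libraries of each leg of animal 03 at 24 h were averaged. Libraries of a group come from mice with different numbers in the labels.

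Type I interferons act on nearly every cell through the receptor chains Ifnar1 and Ifnar2 and the kinases Jak1 and Tyk2, which activate a complex that holds Stat2 and Irf9. This complex binds the interferon-stimulated response element (ISRE) of its target genes. Interferon gamma, which comes mainly from T and NK cells, acts through Ifngr1, Ifngr2, Jak1 and Jak2, and its target genes carry a gamma-activated sequence (GAS). The proteins made in response sense foreign or misplaced RNA and DNA, block translation, trap viral particles and load peptides on class I molecules, and damaged tissue can start the same response without a virus.

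The promoter windows of 5 members are shown because they hold the letters of these elements. Windows of 250 bases before to 50 bases after the transcription start were available from RefSeq (GRCm38.p6) for 26 of the 33 members, and all 26 were found by exact match in mm9, the genome build of the expression tables, from which the positions below are given. Dhx58, Zbp1, Oas2, Mx1, Mx2, Usp18 and Parp14 had no window. The ISRE core was searched as GAAA, any bases NN and GAAA without a gap, on both strands (TTTC, NN and TTTC on the opposite one), and the GAS core as TTCNNNGAA, which reads the same on both strands. Capitals mark the ISRE core in the first 4 windows and the GAS core in the last, written 5′ to 3′ on the strand of the gene (for Irf1, the first of 2 windows).
Isg15 (chr4:155574878-155575177, minus strand): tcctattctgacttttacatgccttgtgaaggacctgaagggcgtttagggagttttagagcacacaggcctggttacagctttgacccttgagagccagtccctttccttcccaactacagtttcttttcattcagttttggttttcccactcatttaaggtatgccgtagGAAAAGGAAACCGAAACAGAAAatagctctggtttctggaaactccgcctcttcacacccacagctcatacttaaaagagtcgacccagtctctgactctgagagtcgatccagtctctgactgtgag
Ifit1 (chr19:34715129-34715428, plus strand): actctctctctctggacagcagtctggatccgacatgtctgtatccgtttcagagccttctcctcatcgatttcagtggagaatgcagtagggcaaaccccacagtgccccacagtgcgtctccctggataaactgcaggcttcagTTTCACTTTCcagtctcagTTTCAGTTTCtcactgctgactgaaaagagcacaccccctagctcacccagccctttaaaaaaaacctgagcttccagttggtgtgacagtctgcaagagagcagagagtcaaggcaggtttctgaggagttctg
Ifit3 (chr19:34657769-34658068, plus strand): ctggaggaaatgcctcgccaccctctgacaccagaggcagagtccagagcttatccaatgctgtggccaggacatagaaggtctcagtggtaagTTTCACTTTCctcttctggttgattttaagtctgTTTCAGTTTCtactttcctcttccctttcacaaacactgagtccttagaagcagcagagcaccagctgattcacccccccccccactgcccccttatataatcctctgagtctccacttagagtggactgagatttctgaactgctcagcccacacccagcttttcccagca
Rsad2 (chr12:27141268-27141567, minus strand): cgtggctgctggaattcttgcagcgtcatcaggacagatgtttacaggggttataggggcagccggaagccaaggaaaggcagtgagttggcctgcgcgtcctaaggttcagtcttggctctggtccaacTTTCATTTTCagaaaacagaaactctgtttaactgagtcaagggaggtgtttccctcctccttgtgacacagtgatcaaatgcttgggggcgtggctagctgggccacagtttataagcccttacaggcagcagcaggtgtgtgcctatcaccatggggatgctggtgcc
Irf1 (chr11:53583266-53583565, plus strand): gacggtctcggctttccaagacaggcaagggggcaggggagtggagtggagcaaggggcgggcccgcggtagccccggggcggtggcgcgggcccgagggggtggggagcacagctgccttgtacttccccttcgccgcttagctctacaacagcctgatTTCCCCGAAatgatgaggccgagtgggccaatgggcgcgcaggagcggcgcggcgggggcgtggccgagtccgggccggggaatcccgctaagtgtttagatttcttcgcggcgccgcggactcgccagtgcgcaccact

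Isg15 held 3 overlapping ISRE cores, with first bases at -78, -72 and -66 from the start, Ifit1 held 2, at -104 and -85, Ifit3 held 2, at -156 and -122, and Rsad2 held 1, at -120. Across members, 14 of the 26 with a window held at least 1 ISRE core, against 3.99% of the 27025 genes with a window. A GAS core was found in 8 of the 26, among them Irf1 at -90, against 9.55% of all genes. Irf7 had neither core in its window. A match is a stretch of letters and not a measured binding site, and no match says only that these letters were not in the window.

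Members were called higher in injured muscle from 3 h on, were highest at 72 h and were not called at 14, 21 or 28 days. A gene was called higher at an adjusted p under 0.05 in limma and a difference of at least 2-fold on the log2(FPKM + 0.1) scale. At 3 h 4 of 33 members were called higher, against 1.69% of the 12099 genes tested. The count was 7 at 10 h (against 11.8% of all genes), 27 at 24 h (17.6%) and 28 at 48 h (33.1%). All 33 were called higher at 72 h, against 50.2% of all genes, and all 33 again at 7 days, against 21.6%. None was called at 14, 21 or 28 days, against 2.89%, 0.00827% and 0.0496% of all genes. No member was called lower at any time, where the shares of all genes called lower, in order of time, were 0.0579%, 0.438%, 0.661%, 1.56%, 0.612%, 1.95%, 0.0331%, 0 and 0.0331%. Oas3 and Oasl1, with control means of at most 0.03331 and 0.09725 FPKM, could not fall 2-fold on this scale and so could not be called lower. Neither could Mx1, Mx2 and Zbp1 at times with control means under 0.1 FPKM (lowest means 0.02155, 0.05475 and 0.0974 FPKM). Members with control means under 1 FPKM at all times passed the filter through injured muscle alone. At an unadjusted p under 0.05, 11 members were higher at 14 days, 1 at 21 days and 0 at 28 days. In bulk muscle, fewer cells of a type and less RNA per cell cannot be told apart, so each value is a level in the tissue and not per cell.

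**Figure D1:**
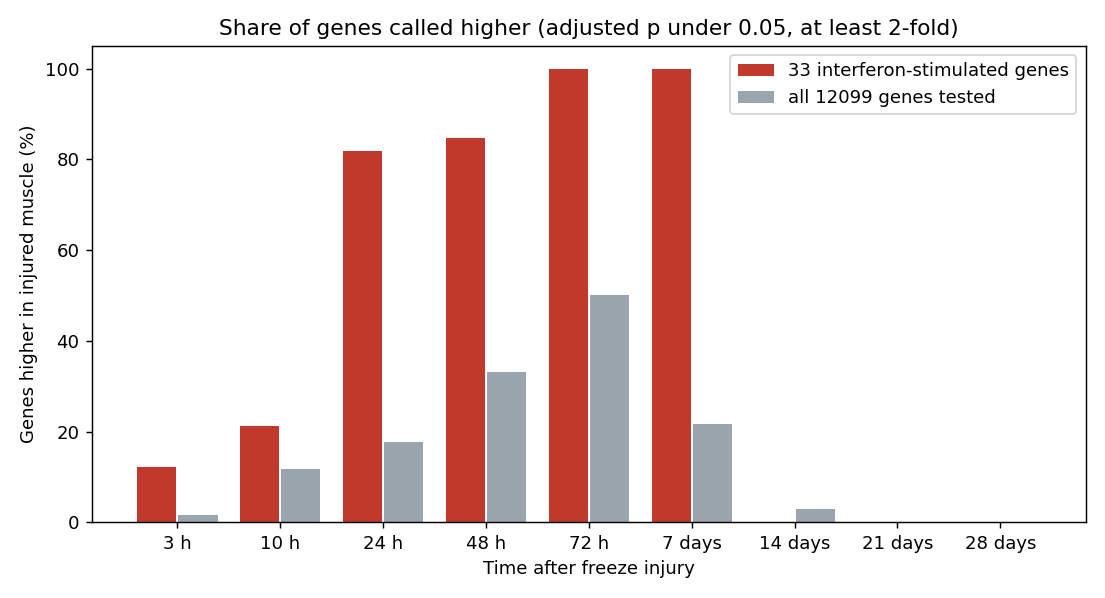
The bars give the percentage of genes called higher in injured than in control muscle at each time after injury, for the 33 interferon-stimulated genes (red) and for all 12099 genes tested (grey). The members stood at 81.8% at 24 h and 84.8% at 48 h, at 100% at 72 h and 7 days, and at 0 from 14 days on.

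The median log2 difference of the members was 1.18 at 3 h, beside -0.28 for all genes tested, 0.68 (10 h, beside 0.20), 1.45 (24 h, beside 0.29), 1.76 (48 h, beside 0.63), 4.59 (72 h, beside 1.01) and 2.06 (7 days, beside 0.31). At 14, 21 and 28 days the medians of the members were 0.71, 0.37 and 0.31, beside 0.17, 0.03 and -0.02 for all genes. The median of all genes moves with the scaling of the libraries. Quantile normalization set it to -0.28 at 72 h and split the calls over all genes at that time into 2121 higher and 2419 lower, in place of 6078 and 74. Under the same normalization the members called higher numbered 7 (3 h, against 2.24% of all genes), 3 (10 h, 6.74%), 13 (24 h, 8.89%), 13 (48 h, 13.8%), 33 (72 h, 17.5%) and 24 (7 days, 10.8%). In the other direction 1 member was lower at 10 h and 1 at 48 h, beside 254 and 1689 of all genes tested. The counts up to 48 h and at 7 days thus depend on the scaling, and the count at 72 h did not change under quantile normalization or under upper quartile scaling.

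**Figure D2:**
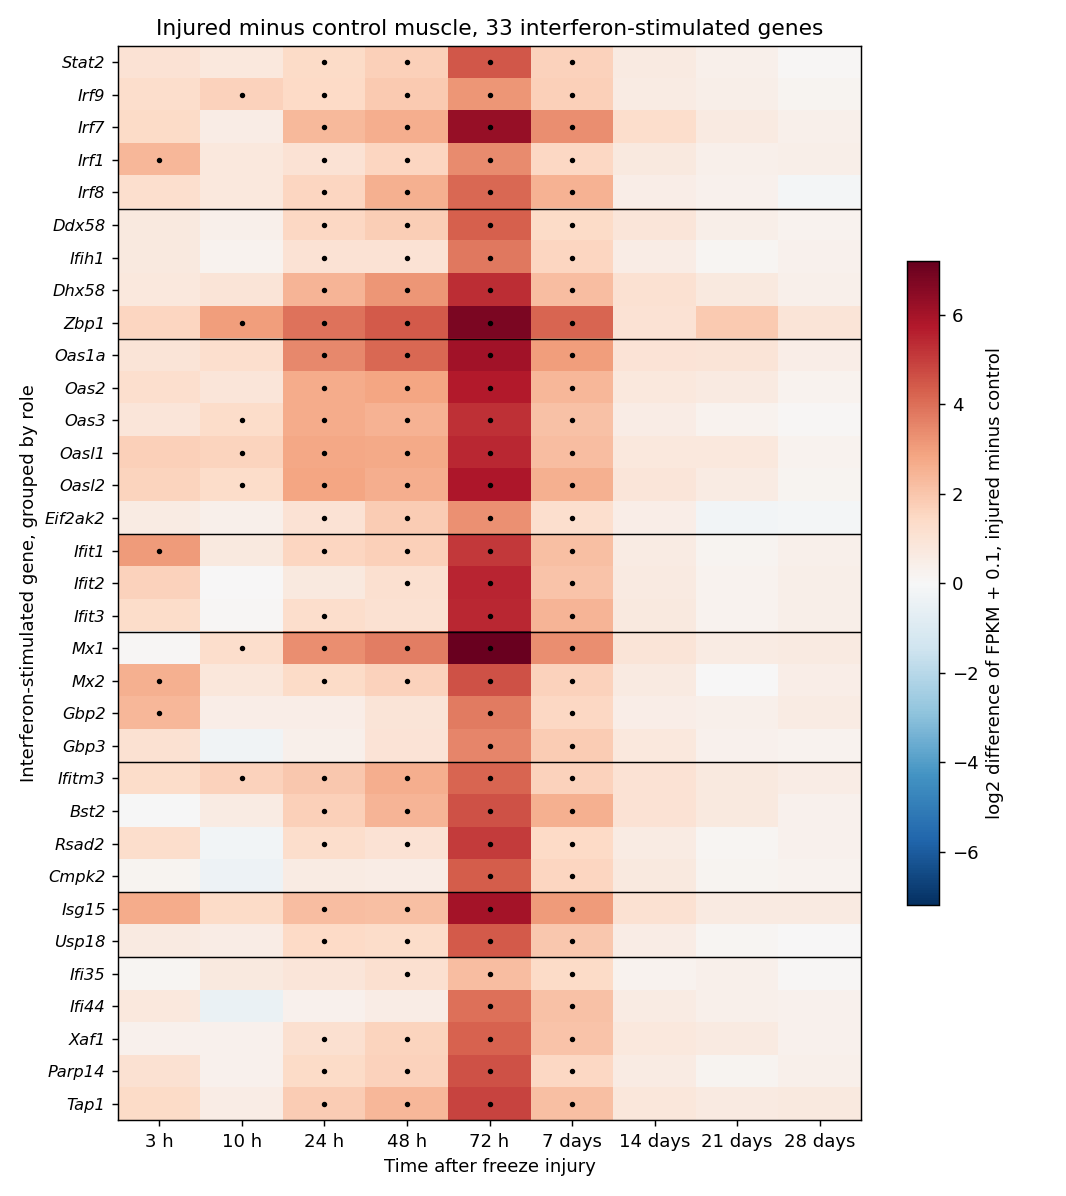
Each cell gives the log2 difference of FPKM + 0.1, injured minus control, for 1 of the 33 genes (rows, grouped by role, with lines between the groups) at 1 of the 9 times (columns), red for higher in injured muscle. Black dots mark calls of higher, and the column of 72 h has the largest difference in every row.

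At 3 h the genes called higher were Ifit1, Irf1, Gbp2 and Mx2. Ifit1, which binds RNA that lacks the methyl mark of host caps, stood at 6.82 and 4.69 FPKM in the 2 injured muscles, against 0.626, 0.546 and 0.6 FPKM in the 3 control muscles. Both injured muscles were far above all controls, and the log2 difference was 3.06 (SE 0.52, adjusted p = 5.13e-05). The transcription factor Irf1, a direct target of interferon gamma, was at 11 and 9.34 FPKM in injured muscle, against 2.04, 2.02 and 1.63 FPKM in controls, a log2 difference of 2.37 (adjusted p = 0.00044). Gbp2, a guanylate binding protein that attacks vacuoles of pathogens, was at 9.8 and 5.85 FPKM in injured muscle, against 1.1, 1.73 and 1.27 FPKM in controls, and rose by 2.41 (adjusted p = 0.000735). The dynamin-like GTPase gene Mx2 was the fourth gene called, at 0.858 and 0.806 FPKM in injured muscle against 0.119, 0.0397 and 0.033 FPKM in controls, a log2 difference of 2.55 (adjusted p = 0.000558). In these 4 genes the groups did not overlap, and this was so for 29 members at 3 h, against 11.4% of all genes.

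Isg15, which encodes a ubiquitin-like protein joined to other proteins, measured 6.88 and 5.77 FPKM in the 2 injured muscles of 3 h, against 1.2, 0.621 and 1.05 FPKM in controls. Its log2 difference of 2.64 (SE 0.77) had an adjusted p of 0.0559 and was not called. With both legs of a mouse treated as a block its adjusted p was 0.011 and 6 members were called at 3 h, Isg15 and Oasl1 joining the 4. Without the injured muscle of animal 11 the count at 3 h was 2 (Ifit1 and Mx2), and with a pseudocount of 1 the difference of Mx2 was 0.79 (adjusted p = 0.103). With each time fitted alone or with library weights 19 members were called at 3 h. No share of all genes was taken beside the counts under these alternatives. The same 2 muscles had summed neutrophil marker levels of 236 and 52.6 FPKM, against 1.07, 1.6 and 2.19 FPKM in controls, and summed macrophage marker levels of 26.7 and 17.6 FPKM, against 9, 12.3 and 14.4 FPKM in controls. Of 5 neutrophil markers tested 4 were called higher at 3 h and of 10 macrophage markers 0, against 1.69% of all genes. The part of these cells in the result was not tested.

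A different set was called at 10 h. Zbp1, a sensor of left-handed nucleic acid that can trigger cell death, was at 2.17, 0.8, 2.18, 2.05 and 1.51 FPKM in injured muscle, against 0.167, 0.076, 0.293, 0.0455 and 0.0849 FPKM in controls. All 5 injured muscles lay above all 5 controls, and the log2 difference was 3.00 (SE 0.58, adjusted p = 6.63e-05). Ifitm3, a membrane protein that blocks the entry of viruses into cells, stood at 108, 50.8, 101, 127 and 60.2 FPKM in injured muscle, against 33.5, 25.1, 27.7, 22.8 and 24.9 FPKM in controls, and rose by 1.66 (adjusted p = 0.00257). Irf9, the DNA-binding part of the complex with Stat2, was at 5.59, 4.81, 6.2, 5.6 and 5.46 FPKM in injured muscle, against 1.99, 1.43, 1.85, 1.51 and 1.54 FPKM in controls, and rose by 1.68 (adjusted p = 9.25e-06). In none of these 3 genes did the groups overlap, and this was so for 16 members at 10 h, against 24.2% of all genes. Mx1, Oas3, Oasl1 and Oasl2 completed the 7, and of these Mx1 was low, at 0.258, 0.0954, 0.0621, 0.254 and 0.393 FPKM in injured muscle against 0.0333, 0.0334, 0.0308, 0.0103 and 0 FPKM in controls (log2 difference 1.25, adjusted p = 0.0346). The call of Mx1 was lost without any 1 of the injured muscles of animals 01, 04 and 05 or the control muscles of animals 02, 04 and 05, under quantile normalization, where its difference was 0.51, and with a pseudocount of 1, where it was 0.24. Under quantile normalization 3 members were higher and 1 lower at 10 h, against 6.74% of all genes called higher.

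None of the 4 genes of 3 h was called at 10 h. Ifit1 had a log2 difference of 0.69 at 10 h (adjusted p = 0.181), Gbp2 of 0.47, Irf1 of 0.77 and Mx2 of 0.83. The change of the difference between 3 h and 10 h was tested as an interaction, chosen after the values were seen. It was -2.37 for Ifit1 (adjusted p = 0.0509) and was called for 0 of 33 members, where 7 had an unadjusted p under 0.05 and a smaller difference at 10 h, and 0.0496% of all genes were called smaller and 0.76% larger. With the legs of a mouse as a block 4 members were called, which were Ifit1, Gbp2, Irf1 and Mx2, with an adjusted p of 0.014 for Ifit1. It was also called for Ifit1 without the 10 h injured muscle of animal 02 or of animal 05 (adjusted p = 0.041 and 0.033), with a pseudocount of 1 (adjusted p = 0.039) and under quantile normalization (adjusted p = 0.00657) and upper quartile scaling (adjusted p = 0.00385) and with library weights.

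At 24 h 27 members were called higher, in a group of 5 injured muscles where that of 3 h had 2. Oas1a, a synthetase of the 2-5A messengers that activate RNase L, was at 1.75, 2.79, 1.21, 4.18 and 12.4 FPKM in injured muscle, against 0.137, 0.289, 0.0876, 0.199 and 0.371 FPKM in controls. Animal 05 was highest and animal 03 lowest of the injured muscles, all of which were above the controls, and the log2 difference was 3.45 (SE 0.53, adjusted p = 2.89e-07). Irf7, the transcription factor that drives the amplification of type I interferon, was at 3.4, 4.73, 2.09, 5.92 and 19.7 FPKM in injured muscle, against 0.679, 0.97, 0.872, 0.946 and 1.52 FPKM in controls, and rose by 2.33 (adjusted p = 0.000185). Ddx58, which encodes the RNA sensor RIG-I, was at 1.01, 1.49, 0.706, 1.41 and 3.49 FPKM in injured muscle, against 0.278, 0.459, 0.405, 0.426 and 0.616 FPKM in controls, and rose by 1.52 (adjusted p = 0.000132). In both genes too animal 05 was far above the other 4. With a pseudocount of 1 the difference of Ddx58 was 0.79, and under quantile normalization 0.75, both below 2-fold.

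Ifit2, Gbp2, Gbp3, Cmpk2, Ifi35 and Ifi44 were not called at 24 h. Gbp2 was at 1.57, 2.41, 1.81, 2.54 and 5.35 FPKM in injured muscle, against 0.978, 2.12, 1.54, 1.75 and 2.95 FPKM in controls (log2 difference 0.48, adjusted p = 0.279), and its groups overlapped. Ifi35 passed the test at 24 h but with a log2 difference of 0.86 stayed below 2-fold. Groups did not overlap for 18 members at 24 h, against 21.1% of all genes. Animal 05 had the highest value of the 5 injured muscles in 33 of 33 members, and animal 03 the lowest in 29. Animal 05 also had the highest summed levels of macrophage markers (injured muscles of animals 01 to 05: 317, 399.8, 248, 714 and 1389 FPKM) and of neutrophil markers (635, 381, 198, 547 and 1157 FPKM), and the part of these cells was not tested. Without animal 05 the count of members was 22. Animal 03 was measured in 2 libraries that were averaged, and in its injured muscle 32 of 33 members were lower in the second library than in the first (median log2 difference -1.96, against -0.65 over all genes tested). At 24 h 13 members were called with a pseudocount of 1, and 13 under quantile normalization, against 8.89% of all genes under the latter.

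The change of the difference between 10 h and 24 h was tested as an interaction. It was called for 0 of 33 members, against 0.215% of all genes called larger, although 14 members had a larger difference at 24 h at an unadjusted p under 0.05. It was called for 2, Mx1 and Oas2, with the legs as a block and also without the 24 h injured muscle of animal 03.

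At 48 h the 3 injured muscles lay above the 4 controls in all 33 members, against 60.4% of all genes. Irf8, a transcription factor of the monocyte and dendritic cell lineages, was at 5.19, 11.2 and 4.35 FPKM in injured muscle, against 1.03, 1.08, 1.04 and 0.882 FPKM in controls. Animal 04 was the highest injured muscle, and the log2 difference was 2.54 (SE 0.47, adjusted p = 6.92e-06). Ifit3, a partner of Ifit1, was at 4.92, 3.83 and 3.89 FPKM in injured muscle, against 1.62, 2.07, 2.2 and 1.92 FPKM in controls, and was not called (log2 difference 1.07, adjusted p = 0.0594, 0.032 with the legs as a block). Rsad2, which encodes viperin, an enzyme that makes a chain-ending nucleotide, was at 2.34, 1.83 and 1.65 FPKM in injured muscle, against 0.754, 1.01, 1.03 and 0.718 FPKM in controls. Its log2 difference of 1.06 (adjusted p = 0.0268) was near the threshold, and it lost its call under upper quartile scaling (0.57), with a pseudocount of 1 (0.65), and without any 1 of the injured muscles of animals 01 and 04 or the control muscles of animals 01 and 05. Under quantile normalization it was -0.08. Ifit3, Gbp2, Gbp3, Cmpk2 and Ifi44 were the 5 members not called.

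**Figure D3:**
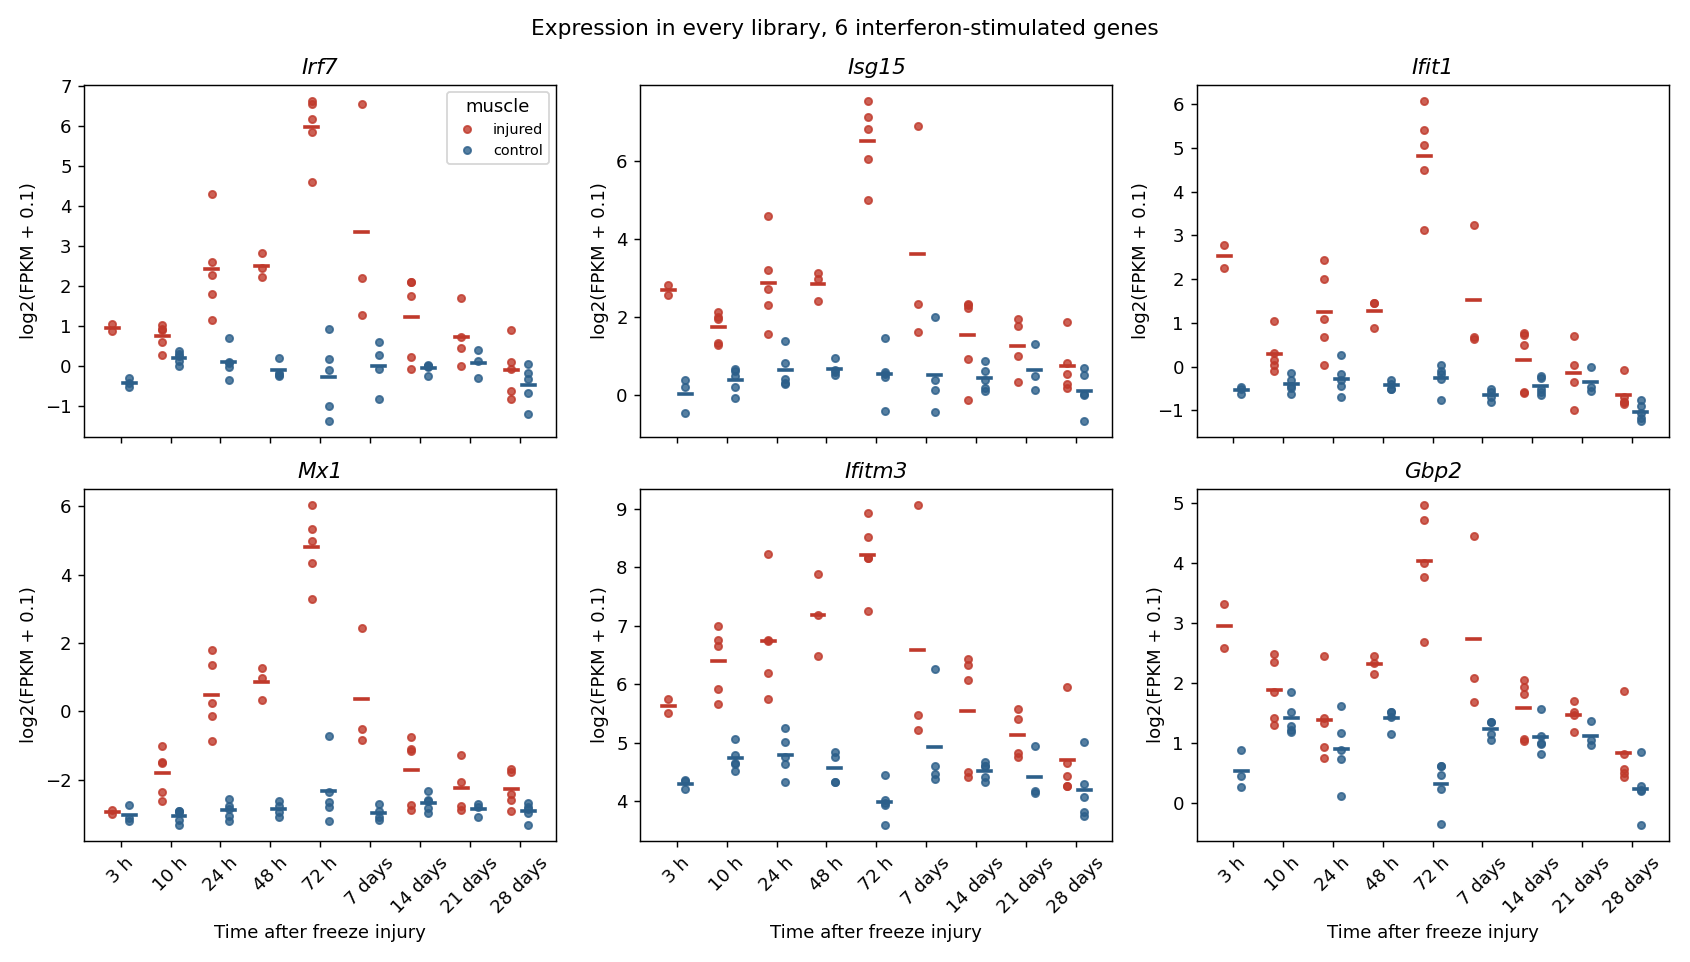
Each point is 1 library of Irf7, Isg15, Ifit1, Mx1, Ifitm3 or Gbp2 as log2(FPKM + 0.1) against time after injury, injured in red left of control in blue, and bars give group means. All 5 injured muscles at 72 h lie above all 5 controls in each panel, Ifit1 and Gbp2 are high at 3 h and lower at 10 h, and at 7 days animal 02 stands alone above the other 2 injured muscles.

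Every member had its highest mean and its highest median in injured muscle at 72 h, and the groups did not overlap in any of the 33, against 57% of all genes. The share of all genes with their highest mean at 72 h was not taken. Members with control means under 1 FPKM at all times had passed the filter only through injured muscle, where they are high. Among transcription factors, Irf7 was at 24, 72.7, 93.5, 98.9 and 58.1 FPKM in injured muscle of animals 01 to 05, against 1.02, 0.283, 0.395, 1.78 and 0.82 FPKM in their controls. The lowest injured muscle, that of animal 01, was above the highest control by more than the whole range of the controls, and the log2 difference was 6.25 (SE 0.51, adjusted p = 8.73e-17). Stat2, a subunit of the complex that binds the ISRE, was at 5.41, 15.4, 18.1, 19.8 and 10.7 FPKM in injured muscle, against 0.584, 0.12, 0.651, 0.719 and 0.551 FPKM in controls, and rose by 4.48 (adjusted p = 1.56e-18). Irf1 reached 7.3, 15.5, 24.6, 21.7 and 10.2 FPKM in injured muscle, against 1.3, 0.511, 1.84, 1.85 and 1.4 FPKM in controls, and rose by 3.40. Irf8 was at 6.57, 12.2, 25.4, 20.4 and 11.6 FPKM in injured muscle, against 0.981, 0.142, 0.99, 1.01 and 0.832 FPKM in controls, and rose by 4.14. In all 4 genes animal 01 was the lowest injured muscle. In Stat2 and Irf8 the control muscle of animal 02 lay far below the other controls. Its sum over the members was also the lowest of the 5 controls (31.6 FPKM, beside 42.1 to 59.1 FPKM). This library was low over all genes, with 5611 above 1 FPKM, beside 8743 to 8822 in the other controls of 72 h. Without it the differences were 4.14 for Stat2 and 3.72 for Irf8, and all 33 members were called, as they were without any other single library of 72 h.

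Among sensors of RNA and DNA, Zbp1 was at 15.5, 60.5, 86.1, 75 and 36.4 FPKM in injured muscle, against 0.264, 0.259, 0.256, 0.788 and 0.264 FPKM in controls. The lowest injured muscle was far above the highest control, and the log2 difference of 6.76 (SE 0.58, adjusted p = 9.02e-16) was the largest of the 4 sensors. Ddx58 was at 3.01, 7.45, 9.96, 11.7 and 6.26 FPKM in injured muscle, against 0.365, 0.0691, 0.267, 0.352 and 0.396 FPKM in controls, and rose by 4.28. Ifih1, which encodes the sensor of long double-stranded RNA MDA5, rose by 3.79, and Dhx58, a relative that regulates both, by 5.30. All 4 sensors had their highest level at 72 h.

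The synthetases of 2-5A, their relatives Oasl1 and Oasl2, and the kinase Eif2ak2 were all higher at 72 h. Eif2ak2, known as PKR, halts translation on double-stranded RNA. Oas1a was at 9.13, 26.4, 38.4, 37.6 and 20.3 FPKM in injured muscle, against 0.163, 0.195, 0.185, 0.747 and 0.193 FPKM in controls, a log2 difference of 6.06 (adjusted p = 1.11e-15). Oasl2, a related protein with ubiquitin-like domains, was at 9.72, 22.3, 33.3, 36.1 and 20.5 FPKM in injured muscle, against 0.325, 0.0746, 0.212, 0.75 and 0.39 FPKM in controls, a difference of 5.82. Oas2, Oas3 and Oasl1 rose by 5.72, 5.27 and 5.44, and Eif2ak2 by 3.29, the smallest rise of this group.

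The 3 genes of the Ifit cluster on chromosome 19 rose at 72 h, Ifit1 by 5.08, Ifit2 by 5.49 and Ifit3 by 5.45. Ifit3 was at 22.4, 80.2, 106, 173 and 62 FPKM in injured muscle, against 1.49, 1.14, 1.6, 1.99 and 1.75 FPKM in controls (SE of the difference 0.41, adjusted p = 5.77e-18). Animal 04 was highest and animal 01 lowest, as in 23 and 33 of the 33 members. At 3 h the 3 genes had stood apart, with differences of 3.06 for Ifit1, 1.65 for Ifit2 (adjusted p = 0.176) and 1.33 for Ifit3 (adjusted p = 0.373). Ifit genes are close relatives, and reads shared between near copies may have been split between them.

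On the log2(FPKM + 0.1) scale the largest rise of all members was that of Mx1, a dynamin-like GTPase that blocks influenza viruses in mice that carry a working allele. Mx1 was at 9.73, 31.4, 40.2, 65.3 and 20.2 FPKM in injured muscle, against 0.00955, 0.0439, 0.0601, 0.51 and 0.0953 FPKM in controls, a log2 difference of 7.14 (SE 0.45, adjusted p = 1.52e-20). Control values were near 0, so the size and the rank of this difference rest on the pseudocount: with a pseudocount of 1 it was 4.68 for Mx1, below Isg15 (5.26) and Irf7 (5.15). C57BL/6 mice are known to carry an Mx1 allele with missing exons that gives no working protein, so the values are of its RNA only. Mx2 was less abundant, at 1.7, 5.92, 6.4, 8.75 and 3.09 FPKM in injured muscle against 0.0754, 0.0297, 0.0602, 0.149 and 0.156 FPKM in controls, a difference of 4.61. Gbp2 was at 6.3, 15.8, 26.2, 31.1 and 13.5 FPKM in injured muscle, against 1.28, 0.681, 1.43, 1.42 and 1.07 FPKM in controls, a difference of 3.71, and Gbp3 rose by 3.52.

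Ifitm3 and Bst2 were the most abundant members at 72 h, on a scale that corrects for transcript length. Ifitm3 reached 153, 286, 485, 366 and 286 FPKM in injured muscle, against 16.2, 12, 15.2, 21.8 and 15.5 FPKM in controls, a log2 difference of 4.21 (SE 0.43, adjusted p = 2.54e-13). Bst2, which encodes tetherin, a protein that holds budding virus at the cell surface, reached 60.3, 144, 245, 189 and 111 FPKM in injured muscle, against 5.38, 7.16, 4.65, 6.24 and 4.45 FPKM in controls, a difference of 4.59. Both were well above 0 in controls too, unlike Mx1 or Oas3. Rsad2 was at 5.72, 16.4, 25.2, 42.2 and 13.8 FPKM in injured muscle, against 0.378, 0.189, 0.328, 0.909 and 0.524 FPKM in controls, a difference of 5.04. Cmpk2, its neighbour on chromosome 12, rose by 4.38, though it was not called at any earlier time.

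Isg15 and Usp18, the protease that removes Isg15 from its targets and restrains the receptor, also rose together at 72 h. Isg15 was at 31.8, 112, 139, 184 and 65.9 FPKM in injured muscle, against 1.34, 1.41, 0.653, 2.63 and 1.27 FPKM in controls, a log2 difference of 5.98 (adjusted p = 2.43e-15). Usp18 was at 5.9, 18, 22.5, 29.9 and 12.6 FPKM in injured muscle, against 0.764, 0.378, 0.582, 0.845 and 0.677 FPKM in controls, a difference of 4.42. Of the remaining members, Parp14, an ADP-ribosyltransferase, rose by 4.57, Tap1, a subunit of the peptide transporter for class I molecules, by 4.88, Xaf1 by 4.24 and Ifi44 by 3.96. Ifi35 had the smallest rise of the 33, 2.23, at 13.9, 26.2, 35.5, 34.9 and 21 FPKM in injured muscle against 5.94, 3.22, 5.29, 5.24 and 7.21 FPKM in controls, and it also had one of the higher control levels.

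The rise between 24 h and 72 h was tested as an interaction and was called for all 33 members, against 42.1% of all genes called larger. The median change of the log2 difference was 3.04, from 1.38 for Ifi35 (adjusted p = 0.00276) to 4.78 for Ifit2 (adjusted p = 6.45e-09). Under upper quartile scaling 32 members were called, and Ifi35 was not (0.72, adjusted p = 0.053). Macrophage markers were high at 48 h as well as at 72 h. Their summed level was 947, 2464 and 684 FPKM in the injured muscles of 48 h, where the summed level of the 33 members was 282, 429 and 205 FPKM. At 72 h the macrophage sums of animals 01 to 05 were 1468, 2824, 5910.0, 4049 and 2167 FPKM, and the member sums 460.2, 1162, 1719, 1787 and 936 FPKM. Within 72 h animal 01 was lowest and animals 03 and 04 were highest in both sums. Across times, 2 pairs of muscles are set side by side, chosen after their values were seen. Animal 05 at 72 h had 2167 FPKM of macrophage markers and 936.3 FPKM of members, and animal 04 at 48 h 2464 and 428.6 FPKM. Animal 01 at 72 h had 1468 FPKM of macrophage markers and 460.2 FPKM of members, and animal 05 at 24 h 1389 and 585.9 FPKM. All 10 macrophage markers were called higher at 24 h (against 17.6% of all genes), 48 h (33.1%), 72 h (50.2%) and 7 days (21.6%). The part of these cells in the rise of the members was not tested.

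**Figure D4:**
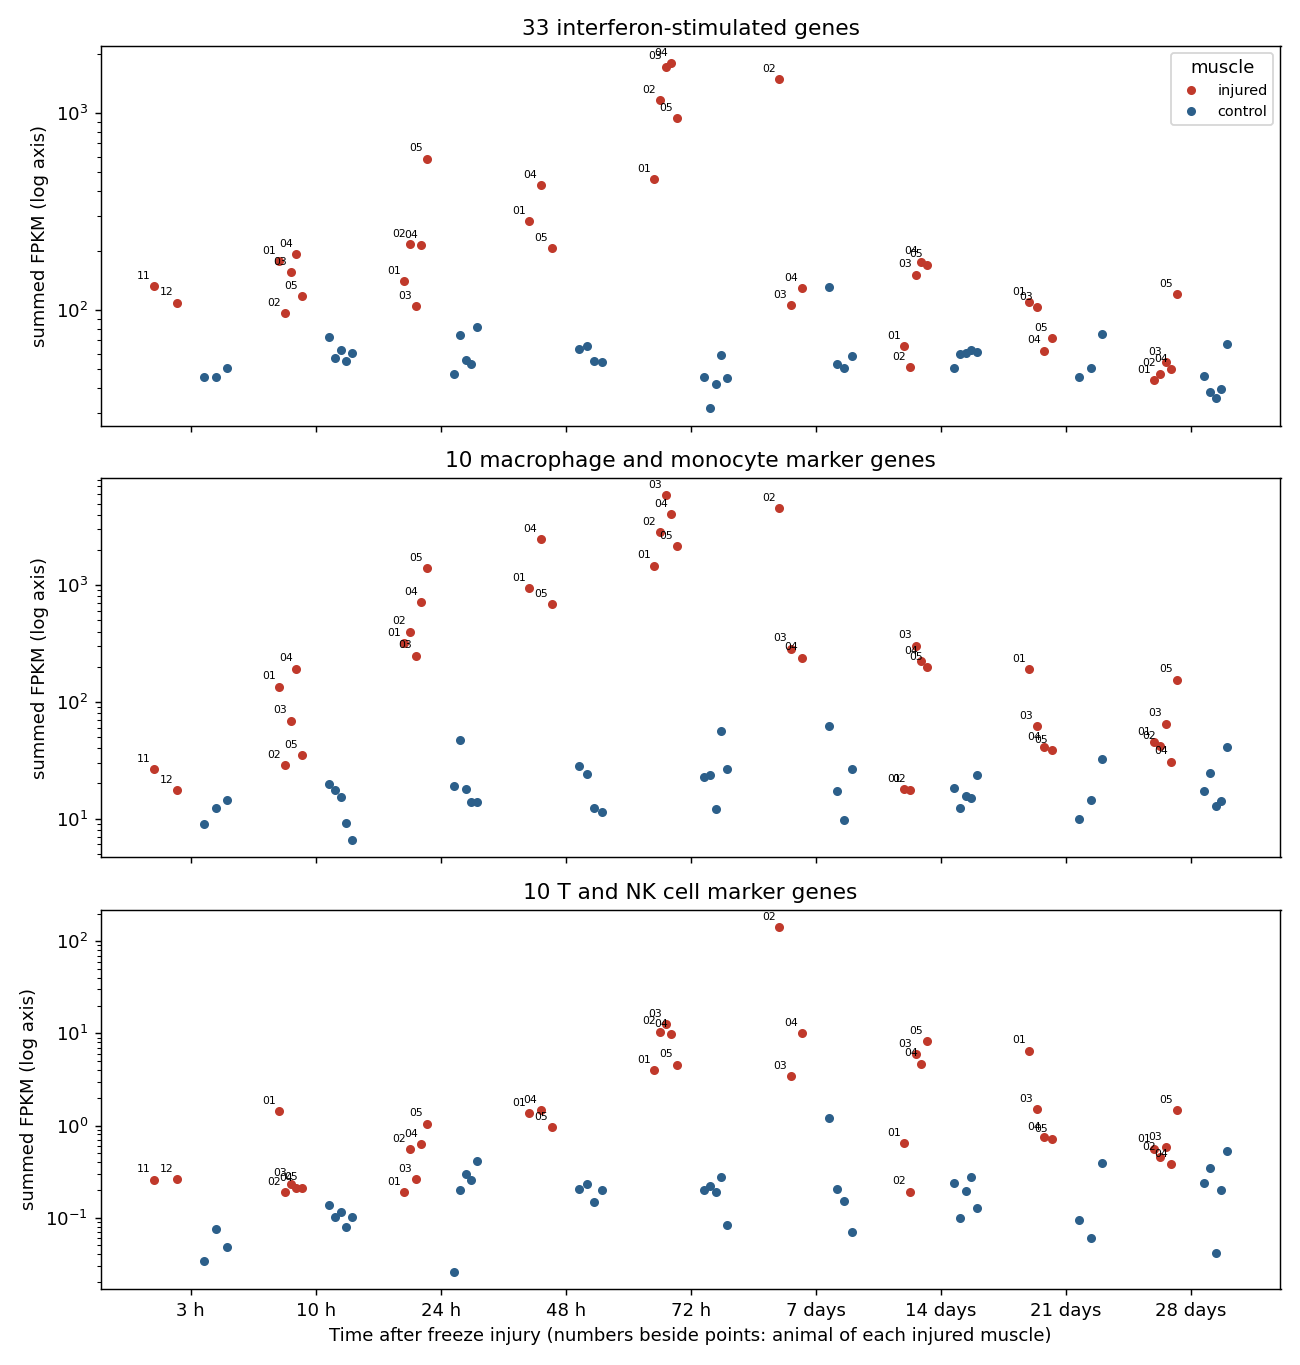
Each point is 1 library, injured in red left of control in blue, with summed FPKM on a log axis against time, for the 33 interferon-stimulated genes (top), 10 macrophage and monocyte markers (middle) and 10 T and NK cell markers (bottom). Small numbers name the animal of each injured muscle, and animal 02 at 7 days and animals 01 and 02 at 14 days stand apart from the rest of their groups in all 3 panels.

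At 7 days all 33 members were called higher, but this count rests largely on 1 muscle. Irf7 was at 94.2, 2.3 and 4.46 FPKM in the injured muscles of animals 02, 03 and 04, against 1.4, 1.11, 0.463 and 0.843 FPKM in the controls of animals 02 to 05. The log2 difference was 3.35 (adjusted p = 2.01e-05), and without animal 02 it was 1.74 (adjusted p = 0.031). Bst2 was at 332, 14.6 and 20.4 FPKM in injured muscle, against 18.2, 5.43, 5.65 and 6.22 FPKM in controls, a difference of 2.57 (adjusted p = 0.000186), and without animal 02 it was 1.15 (adjusted p = 0.146). Ifitm3 was at 533, 37 and 44.2 FPKM in injured muscle, against 76.4, 20.8, 21.9 and 24.2 FPKM in controls, a difference of 1.65 (adjusted p = 0.00982), and without animal 02 it was 0.41 (adjusted p = 0.703). In Bst2 and Ifitm3 the control leg of animal 02 was the highest control, and it overlapped the lower injured muscles. Animal 02 had the highest injured value in 33 of 33 members, and without its injured muscle 5 members were called (Irf7, Irf8, Zbp1, Mx1 and Oas2).

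The injured muscle of animal 02 at 7 days also held the most leukocyte RNA of its group. Its summed macrophage markers were 4591 FPKM, beside 285.6 and 239.2 FPKM in animals 03 and 04, and its summed T and NK cell markers 143.2 FPKM, beside 3.43 and 10.1 FPKM. Its sum over the members was 1484 FPKM, beside 106.1 and 128.7 FPKM. Both legs of this animal also stood apart in the sum of FPKM over all genes, at 828110 in the injured and 755535 in the control muscle, where no other library exceeded 523947. The part of these cells and of the sum of FPKM in its values was not tested. With 7 days fitted alone 0 members were called (limma), and with library weights 16. Groups did not overlap for 28 members at 7 days, against 23.2% of all genes.

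The decline after 72 h was tested as an interaction of 7 days against 72 h, chosen after the values were seen, and was called smaller for 32 of 33 members, against 40% of all genes. The exception was Ifi35 (-0.83, adjusted p = 0.0912), which was called with the legs as a block (-0.85, adjusted p = 0.044) and without the 7 days injured muscle of animal 02 (-1.55) or the 72 h injured muscle of animal 01 (-1.04). By 14 days the difference was smaller than at 72 h for all 33 members, against 54.4% of all genes, from -1.96 for Ifi35 to -6.20 for Mx1 (adjusted p = 4.5e-11).

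The injured muscles of 14 days did not lie together. Ifit3 was at 1.73, 1.47, 2.69, 3.95 and 5.43 FPKM in the injured muscles of animals 01 to 05, against 1.25, 1.86, 1.82, 1.71 and 1.51 FPKM in controls, a log2 difference of 0.72 (adjusted p = 0.341). Bst2 was at 9.95, 4.93, 22.8, 25.4 and 21.4 FPKM in injured muscle, against 5.46, 8.61, 5.89, 8.88 and 6.45 FPKM in controls, and Irf7 at 1.05, 0.835, 4.15, 3.27 and 4.16 FPKM in injured muscle, against 0.877, 0.74, 0.885, 0.918 and 0.894 FPKM in controls. Animals 01 and 02 lay within or near the controls, and animals 03 to 05 above them, in all 3 genes. The sums of macrophage markers in animals 01 to 05 were 18, 17.7, 303, 223 and 198 FPKM, and the sums of the members 65.3, 51.2, 151, 176 and 169.5 FPKM, so both measures set the same 2 muscles apart, and the part of these cells was not tested. No member was called in the fit of all 5 muscles, 1 (Dhx58) was called with the legs as a block, 3 without animal 01, 6 without animal 02, and 21 without both, an alternative chosen after the values were seen. With the controls of all times pooled 12 members were called at 14 days, and with library weights 20. For the counts under these alternatives no share of all genes was taken. The share of 2.89% given for 14 days belongs to the fit of all 5 muscles. Oas3 was the only member whose groups did not overlap at 14 days, against 2.14% of all genes, and its control values were at or near 0.

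No member was called at 21 or 28 days. Zbp1 had the largest at 21 days, 1.88 (SE 0.71, adjusted p = 0.822; with library weights it was 1.84, adjusted p = 0.00108, and called), at 1.6, 0.449, 0.392 and 0.369 FPKM in injured muscle, against 0.0404, 0.202 and 0.0494 FPKM in controls. Its groups did not overlap, which held for 4 members at 21 days (Dhx58, Zbp1, Oas1a and Oasl1), against 6.33% of all genes. Isg15 at 28 days was at 1.04, 1.12, 1.67, 1.34 and 3.57 FPKM in injured muscle, against 0.892, 0.53, 0.922, 1.32 and 1.52 FPKM in controls, a log2 difference of 0.63 (SE 0.53, adjusted p = 1). Animal 05 was the highest injured muscle in 30 of 33 members at 28 days and had the highest macrophage sum (155.0 FPKM, beside 30.8 to 65.1 FPKM in animals 01 to 04). No member had groups that did not overlap at 28 days, against 1.07% of all genes. With SE values of this size a 2-fold difference in Zbp1 or Isg15 was not detectable, so these levels are not shown to equal those of controls.

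Levels in control muscle were compared across the times. A test over the 9 control groups called 2 of 33 members, Rsad2 (adjusted p = 0.0251) and Gbp2 (adjusted p = 0.024), against 21.5% of all genes, and 0 without the 72 h control muscle of animal 02. In control muscle Rsad2 averaged 0.564 ± 0.0794 FPKM at 3 h, 1.21 ± 0.234 FPKM at 10 h, 0.466 ± 0.275 FPKM at 72 h and 0.384 ± 0.156 FPKM at 28 days (SD, n = 3, 5, 5 and 5). Its highest control mean was thus at 10 h, when the injured muscles averaged 1.05 ± 0.247 FPKM (SD, n = 5), and the 2 legs did not differ by a call at that time. With library weights 18 members differed among the control groups, and the share of all genes was not taken.

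Of the interferon genes, Ifnb1, Ifng and Ifnk were looked up, and all 3 were at or near 0. Ifnb1 was listed at 0 in every control library and in all injured libraries but 1 of 24 h, 3 of 72 h and 1 of 7 days, where it reached at most 0.143 FPKM. Ifng was above 0 in all 5 injured muscles of 72 h (0.018 to 0.38 FPKM, against 0 to 0.0217 FPKM in controls) and in all 3 of 7 days (0.0202 to 0.481 FPKM, against 0 in controls). Both were too low to be tested, as was the keratinocyte interferon gene Ifnk. Receptor genes were measured well above these levels. At 72 h Ifnar1 averaged 6.63 ± 2.54 FPKM in injured muscle and 0.828 ± 0.38 FPKM in controls (SD, n = 5 each), a log2 difference of 2.95 (adjusted p = 3.01e-14). Also at 72 h, Ifnar2 averaged 19.5 ± 8.38 FPKM in injured muscle and 1.18 ± 0.405 FPKM in controls (difference 3.91), and Ifngr1 21.4 ± 7.73 FPKM in injured muscle and 3.54 ± 1.25 FPKM in controls (difference 2.60). Of 5 receptor genes tested, the numbers called higher were 0 (3 h), 0 (10 h), 3 (24 h, against 17.6% of all genes), 4 (48 h, 33.1%), 4 (72 h, 50.2%) and 3 (7 days, 21.6%).

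Among 12 genes that carry or regulate the signal, 8 were called higher at 72 h, against 50.2% of all genes, with a median log2 difference of 1.70 over the 12, beside 1.01 over all genes, and Jak1, Jak2, Ptpn11 and Trim24 were not. The kinase Jak2 averaged 10.1 ± 2.04 FPKM in injured muscle and 10.0 ± 3.44 FPKM in controls at 72 h (SD, n = 5 each) and was not called (difference 0.08, adjusted p = 0.72). Socs1, a feedback inhibitor of the Jak kinases, averaged 0.739 ± 0.212 FPKM in injured muscle and 0.0458 ± 0.0489 FPKM in controls at 3 h (SD, n = 2 and 3; difference 2.56, adjusted p = 0.0295) and 2.4 ± 0.962 FPKM in injured muscle and 0.294 ± 0.28 FPKM in controls at 72 h (difference 2.88). Of these 12 genes the numbers called higher at the other times were 1 (3 h, against 1.69% of all genes), 4 (10 h, 11.8%), 3 (24 h, 17.6%), 5 (48 h, 33.1%), 1 (7 days, 21.6%) and 0 (14 days, 2.89%).

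Sensors of nucleic acid outside the members were called early and late. Tmem173, which encodes the adaptor STING, averaged 2.87 ± 0.458 FPKM in injured muscle and 0.498 ± 0.0719 FPKM in controls at 3 h (SD, n = 2 and 3; difference 2.31, adjusted p = 0.0112) and 7.83 ± 3.44 FPKM in injured muscle and 0.324 ± 0.153 FPKM in controls at 72 h (SD, n = 5 each; difference 4.19). Mb21d1, which encodes the DNA sensor cGAS that feeds STING, averaged 1.78 ± 0.847 FPKM in injured muscle and 0.0364 ± 0.0335 FPKM in controls at 72 h (difference 3.67), but at 3 h it was not called (difference 0.87, adjusted p = 0.422). Tlr7, an endosomal receptor for single-stranded RNA, averaged 12.5 ± 6.02 FPKM in injured muscle and 0.107 ± 0.0475 FPKM in controls at 72 h, a difference of 5.82, and was one of 2 pathway genes called at 14 days (1.54, adjusted p = 0.0478). Of 16 genes of nucleic acid sensing, 2 (3 h, against 1.69% of all genes), 6 (10 h, 11.8%), 12 (24 h, 17.6%), 14 (48 h, 33.1%), 15 (72 h, 50.2%, all but Mavs), 13 (7 days, 21.6%) and 1 (14 days, 2.89%) were called higher.

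Other antiviral effectors, outside the members, were also followed. Of 38 tested, 5 (3 h, against 1.69% of all genes), 8 (10 h, 11.8%), 22 (24 h, 17.6%), 28 (48 h, 33.1%), 38 (72 h, 50.2%), 32 (7 days, 21.6%) and 0 (14 days, 2.89%) were called higher, and their median log2 difference at 72 h was 3.82. Of 17 genes of class I antigen presentation and interferon gamma targets, 2 (3 h), 1 (10 h), 10 (24 h), 14 (48 h), 17 (72 h), 14 (7 days) and 1 (14 days) were called higher, against the same shares of all genes. Over all 88 pathway genes tested outside the members none was called lower at any time, and the medians of their log2 differences were 0.46 at 3 h, 3.48 at 72 h and 0.58 at 14 days. Genes near 0 in controls could not be called lower on this scale.

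The chemokine genes Cxcl9 and Cxcl10, which draw T cells, are among these interferon gamma targets. Cxcl9 averaged 2.98 ± 1.23 FPKM in injured muscle and 0.279 ± 0.0744 FPKM in controls at 3 h (SD, n = 2 and 3; difference 2.98, adjusted p = 0.00614), and 0.402 ± 0.267 FPKM in injured muscle and 0.379 ± 0.227 FPKM in controls at 24 h (SD, n = 5 each), where it was not called (difference 0.09, adjusted p = 0.909). At 72 h it averaged 4.75 ± 2.76 FPKM in injured muscle and 0.364 ± 0.0695 FPKM in controls (difference 3.17). Cxcl10 was called at every time from 3 h to 7 days, with differences of 4.24, 4.53, 3.75, 4.29, 6.85 and 4.14, and its injured muscles of 72 h averaged 35.3 ± 25.4 FPKM, against 0.178 ± 0.157 FPKM in controls (SD, n = 5 each). B2m, the light chain of class I molecules, averaged 728 ± 355 FPKM in injured muscle and 57.8 ± 5.83 FPKM in controls at 72 h (difference 3.53), and Psmb8, a subunit of the immunoproteasome, 41.8 ± 20.4 FPKM in injured muscle and 1.66 ± 0.312 FPKM in controls (difference 4.44). At 3 h neither was called (differences 0.17 and 0.45).

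Markers of other cell types were also called at these times. Of 8 T and NK cell markers tested, 0 (24 h, against 17.6% of all genes), 1 (48 h, 33.1%), 8 (72 h, 50.2%) and 8 (7 days, 21.6%) were called higher. The sums over the 10 markers listed were, in injured muscle, 1.35, 1.47 and 0.963 FPKM at 48 h and 3.99, 10.48, 12.7, 9.88 and 4.58 FPKM at 72 h, against 0.0839 to 0.275 FPKM in the controls of 72 h. In injured muscle neutrophil markers summed to 198.4 to 1157 FPKM (24 h) and to 56.6 to 138.4 FPKM (72 h), against at most 57.8 and 17.3 FPKM in the controls of these times. The part of these cells was not tested. Fibroblast markers were called for 4 of 5 genes at 48 h (against 33.1% of all genes), 5 of 5 at 72 h (50.2%, median log2 difference 3.07), 3 of 5 at 7 days (21.6%) and 2 of 5 at 14 days (2.89%). At 7 days their sum was 2061 FPKM in the injured muscle of animal 02, beside 310.7 and 322 FPKM in animals 03 and 04, and at 14 days it was 758 to 918 FPKM in animals 03 to 05, beside 84.4 and 194 FPKM in animals 01 and 02, so it set apart the same muscles as the members did.

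Muscle fiber markers summed to 24440 to 103900 FPKM in the injured muscles and to 61280 to 116400 FPKM in the controls, and none of the 7 was called at any time. Single fiber genes were listed at 0 in some libraries of both legs. In the injured muscle of animal 03 at 21 days 5 of the 7 (Acta1, Ckm, Tnnt3, Mylpf and Pvalb) were listed at 0, its sum was 28790 FPKM, beside 66850 to 93080 FPKM in the other injured muscles of that time, and the median log2 difference of the 7 genes was -3.98. Without this library 0 members were called at 21 days, as with it. Of the members, Mx1, Oas3 and Oasl1 were listed at 0 in 1 or more libraries, and the other members in none.

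Of the 33 members, 5 had several isoforms in the isoform table. Zbp1 had 2 on chromosome 2 of mm9, listed from 173032113 to 173044423 and, for the short one, from 173039236 to 173044423. The short isoform made up 65.6% of Zbp1 in injured muscle at 72 h (range 59.9% to 70.8%, n = 5) and 83.4% at 7 days (range 77.7% to 86.4%, n = 3), and the 2 ranges did not overlap. At the other times its average in injured muscle lay between 56.7% (14 days) and 79.2% (3 h). Its range at 48 h, 61.0% to 78.9% (n = 3), overlapped both. In control muscle its share at 72 h was 71.9% on average, with a range of 47.8% to 84.1%, which covers that of the injured muscles. Mx1 had 2 isoforms with nearly the same ends on chromosome 16, and the one listed from 97668643 to 97684512 made up 80.0% of Mx1 in injured muscle at 72 h (range 74.7% to 85.4%, n = 5). In controls, where Mx1 was near 0, this share ranged over nearly the whole scale. Shares of isoforms are estimates of Cufflinks from the same reads, and carry no test here.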

How the data were processed

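Strand-specific, paired-end RNA-Seq libraries, made from isolated total RNA after enrichment for mRNA, were aligned by the authors to mm9 with TopHat, and Cufflinks, Cuffmerge and Cuffdiff gave the deposited FPKM values per gene and per isoform. Injured and control libraries were merged into separate assemblies, which can shift a gene between legs. Both were read as deposited. The members and gene lists were chosen with earlier results of these data known. Of 92 labelled samples, 12 had no column and were not analysed here, and 76 libraries (37 injured, 39 control) entered the fit.

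The 12099 genes whose mean reached 1 FPKM in some group were tested as log2(FPKM + 0.1), which understates changes of low genes, with limma 3.58.1 (R 4.3.3): 1 fit over 18 groups with an intensity trend and 58 residual degrees of freedom. P-values were two-sided and adjusted by Benjamini-Hochberg over all genes tested per contrast. Contrasts between times (interactions) and the F test over controls were called at an adjusted p under 0.05 alone. By rule, values per library were given for 18 members (Irf7, Stat2, Irf1, Irf8, Ifit3, Isg15, Usp18, Ifitm3, Bst2, Oasl2, Oas1a, Rsad2, Gbp2, Ifi35, Ddx58, Zbp1, Mx1 and Mx2) and group values for selected pathway genes, of which one is not reported here, while Ifit1, Irf9, Ifit2, Cmpk2, Dhx58 and Oas3 were singled out after their values were seen. The 2 legs of a mouse share its number, and the block pairs them: over 36 pairs the deviations from group means correlated at -0.281 to 0.673 (median 0.149, above 0.1 in 20). The fit was tested on simulated data. Python 3.11.15, pandas 2.3.3 and matplotlib 3.10.9 were used.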

Additional observations from a re-analysis of the deposited data

Results flagged for a closer look

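In groups of 4 to 10 libraries, some values lay far from the rest of their group by Dixon's criterion, which chance meets in about 1 in 20 groups. In injured muscle at 24 h animal 05 was far above the other 4, at 12.4 FPKM for Oas1a, 19.7 FPKM for Irf7, 3.49 FPKM for Ddx58 and 5.35 FPKM for Gbp2. In injured muscle at 21 days animal 01 was far above the others for Zbp1 (1.60 FPKM), and at 28 days animal 05 for Isg15 (3.57 FPKM).

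In control muscle at 72 h animal 02 was far below the others for Stat2 (0.120 FPKM) and Irf8 (0.142 FPKM), and animal 04 far above for Mx1 (0.510 FPKM), Zbp1 (0.788 FPKM) and Oas1a (0.747 FPKM). That library of animal 02 had the fewest genes above 1 FPKM of all libraries used (5611). At 7 days the control leg of animal 02 was far above the other controls for Bst2 (18.25 FPKM) and Ifitm3 (76.4 FPKM), and at 14 days that of animal 02 was far below for Irf7 (0.740 FPKM).

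The log2 difference between legs changed between times. From 24 h to 72 h it grew for 33 members, by 4.78 for Ifit2 and 1.38 for Ifi35. From 72 h to 7 days it shrank for 32 members, and from 72 h to 14 days for 33, with changes of -6.20 for Mx1 and -1.96 for Ifi35.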

How the results depend on the processing

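The counts of members called at 72 h (33), for 72 h against 24 h (33) and for 14 days against 72 h (33), and the count of 0 at 28 days, stayed within 1.5 times under every alternative run, while the change of Ifi35 for 72 h against 24 h lost its call under upper quartile scaling (0.72). With a pseudocount of 1 the counts were 3 (10 h), 13 (24 h), 1 for 10 h against 3 h and 0 among controls. Quantile normalization gave 7 (3 h), 3 (10 h), 13 (24 h), 13 (48 h), 5 for 10 h against 3 h, 3 for 24 h against 10 h and 0 among controls, and reversed Gbp2 at 24 h (-0.0705) and Rsad2 at 48 h (-0.0831). Upper quartile scaling gave 13 (3 h), 4 for 10 h against 3 h and 3 for 24 h against 10 h. The replicate block, which pairs the legs of a mouse, gave 6 (3 h), 9 (10 h), 29 (48 h), 1 (14 days), 4 for 10 h against 3 h and 2 for 24 h against 10 h, and moved no other count by over 1.5 times. Each time fitted alone gave 19 (3 h) and 0 (7 days). Library weights gave 19 (3 h), 11 (10 h), 16 (7 days), 20 (14 days), 1 (21 days, Zbp1), 12 for 10 h against 3 h, 6 for 24 h against 10 h and 18 among controls. These weights ran from 0.000326 (72 h control muscle of animal 02) to 16.04 (7 days injured muscle of animal 03). Pooled controls gave 9 (3 h) and 12 (14 days). Keeping the incomplete library of 7 days gave 9 (7 days) and reversed Ifitm3 (-0.822). Without injured animals 01 and 02, chosen after seeing the data, 21 were called at 14 days. Leaving out 1 library gave 2 to 4 (3 h), 5 to 7 (10 h), 22 to 27 (24 h), 24 to 28 (48 h), 5 to 33 (7 days, 5 without injured animal 02), 0 to 6 (14 days, 3 without injured animal 01, 6 without 02), 0 to 1 for 10 h against 3 h, 0 to 2 for 24 h against 10 h, 22 to 33 for 7 days against 72 h and 0 to 2 among controls (0 without the 72 h control of animal 02, 1 without the 10 h control of animal 01 or the 28 days control of animal 03). The cause was not tested. Apart from calls at single times under quantile normalization and upper quartile scaling, no share of all genes was taken for these alternatives. Depth per value is unknown, so low FPKM values carry no counting interval.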
